A study of Mus musculus with 8 samples.

Results

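The genes described here are the Notch ligands Jag1, Jag2, Dll1 and Dll4, the receptors Notch1, Notch2 and Notch3, and Lfng, an enzyme that modifies the receptors. They were taken by symbol from the series' table of gene counts, and all 8 were found among its 24539 gene symbols. RNA sequencing had been done on nephron progenitors from mouse kidney, isolated by sorting at E18.5, and each of 4 genotypes had 2 libraries. The KO-labelled group was Smo c/c, the Het-labelled group Smo c/+ and the WT-labelled group Smo +/+. The SmoM2-labelled group (SmoM2 Transgenic) was Rosa26 SmoM2/+ on a Smo +/+ background and so carried a Smo that signals without Hedgehog ligand. All 8 libraries, the WT-labelled ones included, came from embryos with Six2GFPcre, a Cre recombinase joined to GFP under Six2 control, which acts in nephron progenitors and is inherited by the nephron cells that arise from them. The labels do not say whether libraries of a group came from separate embryos or how many embryos went into each, so the p-values below measure only the spread between these libraries, part of which may be technical. The design asks how the loss or the constant activity of Smo, the membrane protein that passes on the Hedgehog signal, goes with the level of Notch genes in these cells.

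Notch signalling passes between touching cells: a ligand of the Jagged or Delta-like type on a cell binds a Notch receptor on its neighbour, the receptor is cut, and its inner part joins Rbpj on DNA to switch on genes such as those of the Hes and Hey families. Fringe enzymes, of which Lfng is a member, add a sugar to the receptor and change which ligands it answers. In the developing kidney, Notch2 is known as the main receptor by which progenitors leave the self-renewing state and form early nephron structures, and Jag1 and Dll1 are known from those early structures (pretubular aggregate and renal vesicle).

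In the RefSeq coordinates of GRCm38.p6, the ligand genes lie at chr2:137081451-137116520 (Jag1), chr12:112907803-112929812 (Jag2), chr17:15367354-15376932 (Dll1) and chr2:119325784-119335666 (Dll4). The receptor genes lie at chr2:26457902-26503822 (Notch1), chr3:98013538-98150367 (Notch2) and chr17:32120820-32166896 (Notch3), and Lfng lies at chr5:140607341-140615545. All 8 members matched the RefSeq promoter table by symbol, with 9 start sites in all. The 250 bases before the start are printed for Jag1 and Dll1, the ligands called higher under the KO label, as well as for Lfng, which was called in the comparisons of the KO and of the Het label with the SmoM2 label. They are in the sense of the gene, 5′ to 3′, and capitals mark each match to TGGGAA, the letters at the core of the Rbpj site, or to its reverse complement TTCCCA. The stretches are chr2:137116521-137116770 on the minus strand for Jag1, chr17:15376933-15377182 on the minus strand for Dll1 and chr5:140607091-140607340 on the plus strand for Lfng.
Jag1: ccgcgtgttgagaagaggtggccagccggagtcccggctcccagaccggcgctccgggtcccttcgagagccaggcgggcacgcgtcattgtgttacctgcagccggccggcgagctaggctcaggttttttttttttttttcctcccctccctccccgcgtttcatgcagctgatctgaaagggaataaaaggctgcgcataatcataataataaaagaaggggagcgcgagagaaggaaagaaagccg
Dll1: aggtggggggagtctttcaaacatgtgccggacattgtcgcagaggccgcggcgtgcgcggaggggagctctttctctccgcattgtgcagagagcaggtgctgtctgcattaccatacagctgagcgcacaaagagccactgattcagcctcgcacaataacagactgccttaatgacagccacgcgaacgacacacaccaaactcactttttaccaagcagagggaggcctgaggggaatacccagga
Lfng: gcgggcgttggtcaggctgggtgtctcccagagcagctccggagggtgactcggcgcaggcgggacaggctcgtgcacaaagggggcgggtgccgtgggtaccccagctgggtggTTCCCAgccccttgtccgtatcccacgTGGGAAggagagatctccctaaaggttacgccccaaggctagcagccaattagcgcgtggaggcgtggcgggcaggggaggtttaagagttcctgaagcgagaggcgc
In windows of 300 bases (250 before to 50 after each start), TGGGAA on either strand was found at 1 of the 9 starts of the members, that of Lfng, where 2 matches stood at -135 and -108 bases from the start. The same letters were in 25.6% of the 32851 promoters of the table. GACCACCCA, the letters of the Gli consensus, were in 0 of the 9 windows and in 0.253% of all promoters. The libraries hold no measure of binding at these promoters.

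The libraries held between 4422305 and 10305398 counts in genes, with the fewest in the KO-labelled group. Levels are given in CPM, the usual scaling of a gene's counts to the size of its library (here TMM-scaled), for replicates 1 and 2 in turn. Smo was at 13.1 and 11.1 CPM in the KO-labelled libraries, at 363 and 375 in the WT-labelled ones and at 605 and 629 under the SmoM2 label. In the Het-labelled libraries it was at 14.4 and 23.9 CPM, near the KO-labelled level, which goes against a genotype with a wild-type allele, so all groups are named by their labels. Y-linked transcripts were present in both KO-labelled libraries and absent from both Het-labelled ones, which held Xist instead. In the WT- and SmoM2-labelled groups, replicate 1 was male and replicate 2 female by these transcripts, so KO- and Het-labelled libraries cannot be told apart from the sex of the embryos when compared with each other. The progenitor factor Six2 was at 1132 to 2105 CPM in every library.

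Compared per length of transcript, the receptors and Lfng were more abundant than most of the ligands. In the deposited RPKM (reads per kilobase of transcript, scaled to the depth of the library), Notch2 was the highest member in every group, at 39.3 ± 7.77 under the KO label, 50.9 ± 7.15 under the Het label, 39.8 ± 2.81 under the WT label and 34.2 ± 3.13 under the SmoM2 label (mean ± SD, n = 2). In the WT-labelled libraries the order below Notch2 was Notch1 at 19.2 ± 3.27, Notch3 at 12.6 ± 2.09, Lfng at 11.0 ± 2.15, Jag1 at 5.58 ± 2.14, Jag2 at 2.12 ± 0.377, Dll1 at 1.77 ± 0.0940 and Dll4 at 0.0708 ± 0.0294 RPKM. Of these neighbours only Notch3 and Lfng overlapped in their library values. The order differed in the KO-labelled libraries, where Jag1 was second at 22.2 ± 8.16 RPKM and overlapped Notch1 at 18.3 ± 3.67, and where Dll1, at 6.997 ± 0.465, stood above Jag2, at 1.92 ± 0.163. In the Het-labelled libraries Notch3 stood second at 21.2 ± 2.43 RPKM and overlapped Notch1 at 17.6 ± 3.53.

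**Figure D1:**
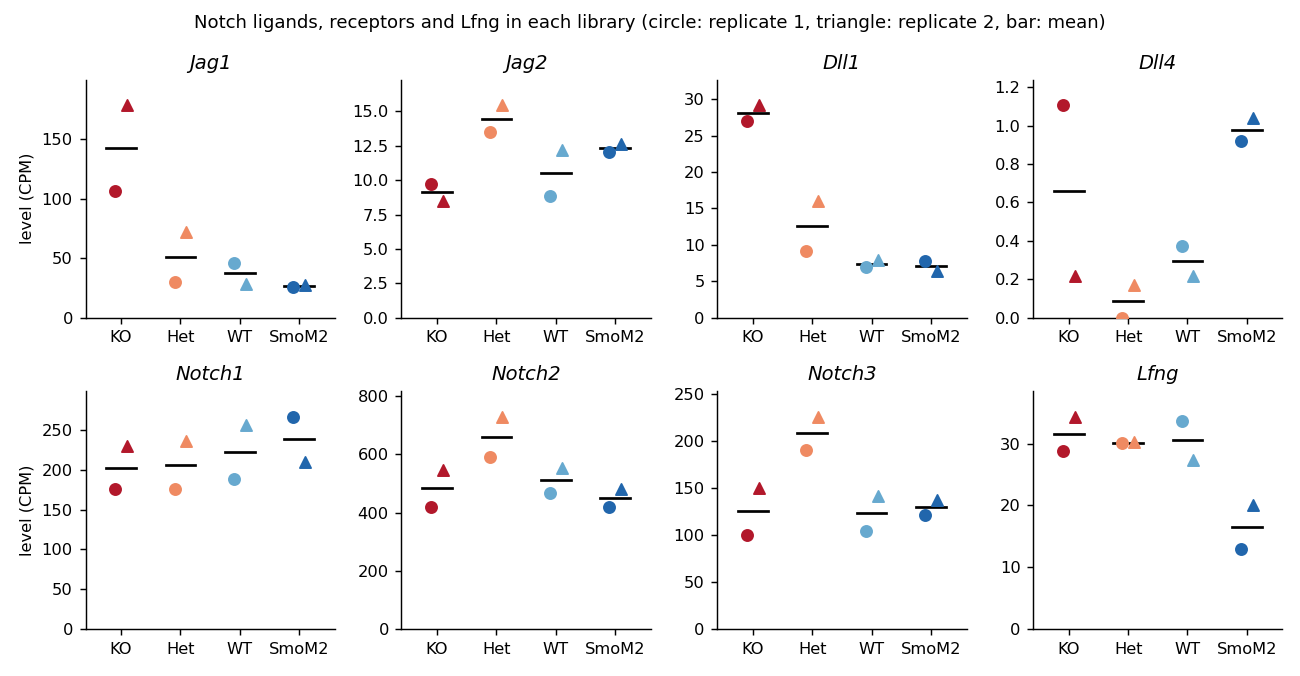
Level of each member in each of the 8 libraries in CPM, on a linear axis from 0 for each gene; circles are replicate 1, triangles replicate 2 and bars group means. The KO-labelled libraries stand above all others for Jag1 (107 and 179) and Dll1 (27.0 and 29.2). The Het-labelled ones do so for Notch3 (190 and 226), Notch2 (593 and 730) and Jag2 (13.5 and 15.5), and lie below all others for Dll4 (0 and 0.170). The SmoM2-labelled ones lie below all others for Lfng (13.0 and 19.99) and Jag1 (25.6 and 27.4).

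Jag1 and Dll1 were the members that differed between the KO- and the WT-labelled libraries, and both were higher in the KO-labelled ones. Jag1, a Jagged ligand, was at 107 and 179 CPM under the KO label, 30.2 and 71.8 under the Het label, 46.0 and 28.2 under the WT label and 25.6 and 27.4 under the SmoM2 label. Both KO-labelled libraries lay above all 6 others, the Het- and WT-labelled values overlapped, and both SmoM2-labelled values were under these. The group means were 143 ± 50.8, 51.0 ± 29.4, 37.1 ± 12.5 and 26.5 ± 1.29 CPM, in the same order. The KO-labelled libraries exceeded the WT-labelled ones by 1.94 on the log2 scale (SE 0.35, 95% interval 1.16 to 2.71, adjusted p = 0.00359 by edgeR's quasi-likelihood test over 13459 genes). Only 153 tested genes had a larger log2 change in that comparison.

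In 3 of the groups Jag1 varied more within the pair than any other tested member. Its coefficient of variation was 35.6% under the KO label, 57.7% under the Het label and 33.8% in the WT-labelled pair, against 4.88% in the SmoM2-labelled pair. The Jag1 difference between the Het- and WT-labelled libraries was 0.44 (95% interval -0.34 to 1.22, edgeR adjusted p = 0.384). Without Het-labelled replicate 2 it was -0.32, so its direction rested on that library. Against the Het-labelled libraries, the KO-labelled ones were higher in Jag1 by 1.496 (SE 0.35, edgeR adjusted p = 0.0262). This call was lost without KO-labelled replicate 2 (1.07, adjusted p = 0.145), without Het-labelled replicate 1 (0.99, adjusted p = 0.157) and in DESeq2 (1.46, adjusted p = 0.0545).

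Dll1, a Delta-like ligand, was at 27.0 and 29.2 CPM under the KO label and 9.09 and 16.0 in the Het-labelled libraries. It was at 6.90 and 7.95 CPM under the WT label and 7.77 and 6.36 under the SmoM2 label. The KO-labelled values stood above all others, the Het-labelled values lay between them and the rest, and the WT- and SmoM2-labelled values overlapped. The KO-labelled libraries exceeded the WT-labelled ones by 1.92 on the log2 scale (SE 0.27, 95% interval 1.33 to 2.51, edgeR adjusted p = 0.000960) and the Het-labelled ones by 1.18 (SE 0.27, edgeR adjusted p = 0.0232). The call against the Het-labelled group was lost without KO-labelled replicate 1 (1.23), KO-labelled replicate 2 (1.11) or Het-labelled replicate 1 (0.81). With any KO- or Het-labelled library left out, fewer genes of any kind were called in KO against Het than in the main fit. The Dll1 difference between the Het- and WT-labelled libraries was 0.74 (95% interval 0.14 to 1.346, edgeR adjusted p = 0.0693), and without Het-labelled replicate 1 it passed the test at 1.07 (adjusted p = 0.0332).

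Against the SmoM2-labelled libraries, the KO-labelled ones were higher in Jag1 by 2.43 (SE 0.37, edgeR adjusted p = 0.000745) and in Dll1 by 1.99 (SE 0.27, edgeR adjusted p = 0.000451). Between the SmoM2- and the WT-labelled libraries, Jag1 differed by -0.49 (95% interval -1.28 to 0.30, edgeR adjusted p = 0.874) and Dll1 by -0.066 (95% interval -0.68 to 0.55, edgeR adjusted p = 0.988). Dll1 was also higher under the Het than under the SmoM2 label (0.81, SE 0.28, edgeR adjusted p = 0.0432), a call made in 8 of 16 alternatives, and Jag1 differed there by 0.93 (edgeR adjusted p = 0.0686) and was called in 6 of 16. The comparisons of the KO-labelled with the WT- and with the SmoM2-labelled libraries kept Jag1 and Dll1 past the threshold in 16 of 16 alternatives. Against the WT-labelled group these spanned 1.51 to 2.33 for Jag1 and 1.81 to 1.99 for Dll1. With no Het- or SmoM2-labelled library in the fit, the values were 1.91 and 1.89. Against the WT-labelled library of the same sex pattern alone, Jag1 was higher by 1.60 (adjusted p = 0.0199) and Dll1 by 1.99 (adjusted p = 0.00295), with the single WT-labelled library assumed to vary like the other groups.

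Jag2, the other Jagged ligand, had no called difference between groups. It was at 9.74 and 8.49 CPM under the KO label, 13.5 and 15.5 under the Het label, 8.86 and 12.2 under the WT label and 12.1 and 12.6 under the SmoM2 label. The Het-labelled values were the highest and the KO- and WT-labelled values overlapped. The lowest adjusted p of its group comparisons was that of the KO- against the Het-labelled libraries (-0.66, 95% interval -1.21 to -0.12, edgeR adjusted p = 0.111). The KO- against WT-labelled difference was -0.20, with a 95% interval of -0.75 to 0.34.

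Dll4, a Delta-like ligand best known from endothelium, was close to the limit of these libraries. It had 5 and 1 counts under the KO label, 0 and 1 under the Het label, 4 and 2 under the WT label and 9 and 9 under the SmoM2 label. A count of 0 in Het-labelled replicate 1 allows a level of up to 0.401 CPM, counting error only. In CPM the SmoM2-labelled libraries (0.920 and 1.04) stood above the Het- and WT-labelled ones (0 to 0.373) and overlapped the KO-labelled ones (1.11 and 0.218). Dll4 was the member that did not pass the filter on low counts, so 7 of the 8 members were tested. With no filter, its edgeR adjusted p was 0.0368 for the Het- against the SmoM2-labelled libraries and 0.747 for the SmoM2- against the WT-labelled ones. The p-values of that fit are not comparable with those of the other settings, as described for Lfng below. The 16 endothelial markers summed to 49.0 and 56.3 CPM under the SmoM2 label, within the 41.5 to 83.5 CPM of the other libraries.

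Summed over the 4 ligands, the transcript level per length was highest in the KO-labelled libraries, at 25.4 and 37.2 RPKM. It was 9.34 and 17.4 under the Het label, 10.7 and 8.34 under the WT label and 8.13 and 8.17 RPKM under the SmoM2 label. Jag1 made up most of that sum in the KO-labelled libraries, with 64.7% and 75.3%, and 45.8% to 66.0% in the others. The share of Jag2 was lower in the KO-labelled libraries, at 8.002% and 4.85%, than in the other 6, at 17.2% to 30.3%. The ratio of Jag1 to Jag2 in RPKM was 8.08 and 15.5 under the KO label, against 1.56 to 3.83 in the rest. The ratio of Jag1 to Dll1, by contrast, was 2.47 and 3.82 in the KO-labelled libraries, inside the 2.05 to 4.16 of the other libraries. The 3 receptors summed to 60.2 and 81.9 RPKM under the KO label, 80.5 and 99.0 under the Het label, 65.7 and 77.3 under the WT label and 66.8 and 67.9 under the SmoM2 label, so that the KO- and WT-labelled receptor sums overlapped while their ligand sums did not.

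**Figure D2:**
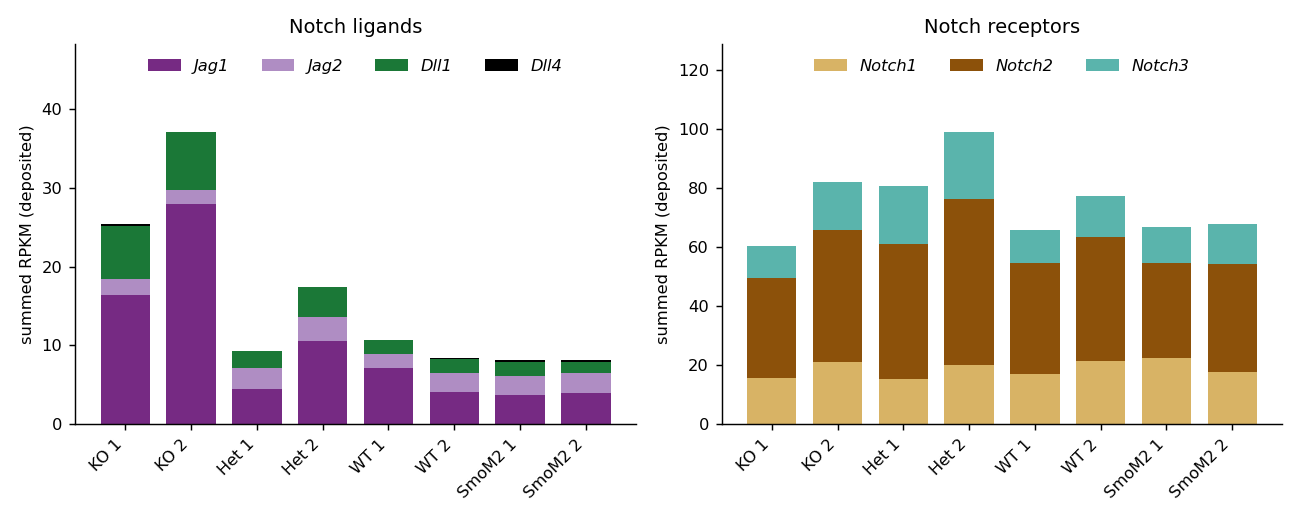
Deposited RPKM of the 4 ligands (left) and the 3 receptors (right) stacked for each library, on linear axes from 0. The ligand bars of the KO-labelled libraries reach 25.4 and 37.2 RPKM against at most 17.4 elsewhere, and the receptor bars are highest in Het-labelled replicate 2 (99.0), KO-labelled replicate 2 (81.9) and Het-labelled replicate 1 (80.5).

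Among the receptors, Notch3 was the member called higher in the Het-labelled than in the WT-labelled libraries. Notch3, a receptor also known from pericytes and smooth muscle, was at 190 and 226 CPM in the Het-labelled libraries. It was at 100 and 150 CPM under the KO label, 104 and 141 under the WT label and 121 and 137 under the SmoM2 label. Both Het-labelled values stood above all others and the other 3 groups overlapped. The Het-labelled libraries were higher than the WT-labelled ones by 0.76 (SE 0.19, 95% interval 0.33 to 1.19, edgeR adjusted p = 0.0156), than the SmoM2-labelled ones by 0.68 (SE 0.19, edgeR adjusted p = 0.0191) and than the KO-labelled ones by 0.73, here coded as -0.73 for KO against Het (SE 0.20, edgeR adjusted p = 0.0400).

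The Notch3 calls were narrow. Against the WT-labelled group the call was lost without Het-labelled replicate 2 (0.62, adjusted p = 0.122), without WT-labelled replicate 1, which leaves the WT-labelled library of the same sex pattern (0.56, adjusted p = 0.0950), and with trends over GC content and length removed (0.57, adjusted p = 0.0668). Against the KO-labelled group it was lost with those trends removed (-0.30, adjusted p = 0.447), without KO-labelled replicate 1 (-0.47, adjusted p = 0.202), and without Het-labelled replicate 1 (-0.85, adjusted p = 0.124) or replicate 2 (-0.62, adjusted p = 0.190). Against the SmoM2-labelled group it was lost with the trends removed (0.51, adjusted p = 0.0763) and without Het-labelled replicate 2 (0.53, adjusted p = 0.150), SmoM2-labelled replicate 1 (0.56, adjusted p = 0.126) or SmoM2-labelled replicate 2 (0.74, adjusted p = 0.0592). The ratio of Notch3 to Notch1 in RPKM was 1.29 and 1.14 in the Het-labelled libraries and 0.543 to 0.780 in the others. The 9 pericyte and smooth muscle markers summed to 320 and 291 CPM under the Het label, above the 284 and 249 of the KO label, overlapping the 317 and 387 of the WT label and below the 369 and 371 of the SmoM2 label. Of the 8 of them that were tested, 0 were called in Het against WT (25.3% of all tested genes). In KO against Het 1 was called higher (4.33% of all tested genes). Their part in the Notch3 values was not tested.

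Notch2, the main receptor of nephron formation, was at 420 and 547 CPM under the KO label, 593 and 730 under the Het label, 468 and 554 under the WT label and 421 and 481 under the SmoM2 label. The Het-labelled values were the highest, and the other 3 groups overlapped. The Het-labelled libraries exceeded the SmoM2-labelled ones by 0.55 (SE 0.16, 95% interval 0.19 to 0.91, edgeR adjusted p = 0.0228), a call that was lost without Het-labelled replicate 2 (0.37, adjusted p = 0.231), SmoM2-labelled replicate 1 (0.42, adjusted p = 0.162) or SmoM2-labelled replicate 2 (0.62, adjusted p = 0.0592). Against the WT-labelled libraries the Notch2 difference was 0.37 (95% interval 0.014 to 0.73, edgeR adjusted p = 0.116), which passed with the replicate number as a block (0.37, adjusted p = 0.0430). In KO against Het, Notch2 differed by -0.45 (edgeR adjusted p = 0.102) and passed in DESeq2 (-0.48, adjusted p = 0.0347). Over the 4 groups together it did not pass (edgeR adjusted p = 0.0589) but was called in 9 of 15 alternatives. Notch2 made up 47.9% to 57.5% of the summed receptor RPKM in every library.

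Notch1, the receptor best known from T cells and vessels, overlapped between all 4 groups. It was at 176 and 230 CPM under the KO label, 177 and 237 under the Het label, 189 and 257 under the WT label and 267 and 210 under the SmoM2 label. The spread within each pair was as large as any distance between group means. The edgeR adjusted p over the 4 groups together was 0.687, and the 95% interval of the KO- against WT-labelled difference ran from -0.57 to 0.30.

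All 3 receptors had KO- against WT-labelled changes near 0: -0.14 for Notch1, -0.079 for Notch2 (95% interval -0.44 to 0.28) and 0.028 for Notch3 (95% interval -0.40 to 0.46). Their transcripts, of 9489, 10506 and 7943 bases, are long, and long genes as a whole read lower in the KO-labelled libraries. Over the 718 tested genes of at least 7943 bases, the median change was -0.46 in that comparison, against 0.034 over all tested genes. With trends over GC content and length removed, the changes were 0.23 for Notch1, 0.32 for Notch2 and 0.27 for Notch3, none past the threshold (adjusted p = 0.408, 0.182 and 0.399). The same removal left Jag1 at 2.12 (adjusted p = 0.00333) and Dll1 at 1.88 (adjusted p = 0.00125). In this and every comparison of bulk libraries, fewer cells of a type and less RNA per cell cannot be told apart.

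Lfng, the fringe enzyme, was lower in both SmoM2-labelled libraries than in the other 6. It was at 13.0 and 19.99 CPM there, and at 28.8 and 34.4 under the KO label, 30.1 and 30.2 under the Het label and 33.7 and 27.3 in the WT-labelled libraries. The last 3 groups overlapped, with means of 31.6 ± 3.97, 30.2 ± 0.111 and 30.5 ± 4.53 CPM against 16.5 ± 4.95 in the SmoM2-labelled pair. Lfng was called higher under the KO than under the SmoM2 label (0.94, SE 0.22, edgeR adjusted p = 0.00824) and higher under the Het than under the SmoM2 label (0.87, SE 0.22, edgeR adjusted p = 0.00991). It did not pass against the WT-labelled libraries (-0.90, SE 0.21, 95% interval -1.36 to -0.43, edgeR adjusted p = 0.157), with an estimate close in size to these.

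In the comparison of the SmoM2- with the WT-labelled libraries few genes of any kind passed. 30 of the 13459 tested genes did (0.223% of tested genes called), and 0 of the 7 tested members, while 1036 genes had an unadjusted edgeR p under 0.05 and Lfng ranked 114th by p. DESeq2 also called 0 members there. Lfng passed with no filter on low counts (-0.89, edgeR adjusted p = 0.00129), when 356 genes were called. That fit gave far lower p-values than the other settings for some members, so its calls are not comparable with theirs. In KO against WT its edgeR adjusted p was 2.44e-30 for Jag1 and 1.76e-11 for Dll1, against 0.00359 and 0.000960 in the main fit. The Lfng difference from the KO-labelled libraries lost its call without KO-labelled replicate 2 (0.80, adjusted p = 0.0558) and without SmoM2-labelled replicate 1 (0.61, adjusted p = 0.0795). That from the Het-labelled libraries lost it without Het-labelled replicate 1 (0.84, adjusted p = 0.0570) or 2 (0.84, adjusted p = 0.0549), without SmoM2-labelled replicate 1 (0.55, adjusted p = 0.0940) and with GC and length trends removed (0.51, adjusted p = 0.114).

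Counted over the 7 tested members, 2 were called in the KO- against WT-labelled comparison, where 23% of all tested genes were called in either direction, and both were higher, where 11.6% of tested genes were. In the Het- against WT-labelled comparison 1 was called, with 25.3% of tested genes. In the KO- against Het-labelled comparison 3 were (9.43% of tested genes), of which Jag1 and Dll1 were higher (4.33%) and Notch3 was lower (5.1%). Against the SmoM2-labelled libraries, 3 members were called for the KO-labelled group (32.5% of tested genes) and 4 for the Het-labelled group (33.7%), all of them higher (16.5% and 16.9% of tested genes) and none lower (16% and 16.7%). Over the 4 groups together the edgeR test called Jag1, Dll1, Notch3 and Lfng, 4 members, with 41% of tested genes. Read against these shares, the members' counts in the KO- and the Het- against WT-labelled comparisons, in KO against SmoM2 and over the 4 groups are near the background of these libraries.

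Many genes of any kind had libraries of 2 groups that did not overlap. This held for 2 of the 7 tested members in KO against WT (62% of all tested genes), 4 in Het against WT (66.9%) and 2 in SmoM2 against WT (35.8%). It held for 5 in KO against Het (56.9%), 4 in KO against SmoM2 (67.1%) and 6 in Het against SmoM2 (70.9%). The median log2 change over the tested members was 0.028 in the KO- against WT-labelled comparison, against 0.034 over all tested genes, and 0.44 in the Het- against WT-labelled one, against -0.017 over all. Comparisons that name the same group share its libraries and are not independent of each other.

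**Figure D3:**
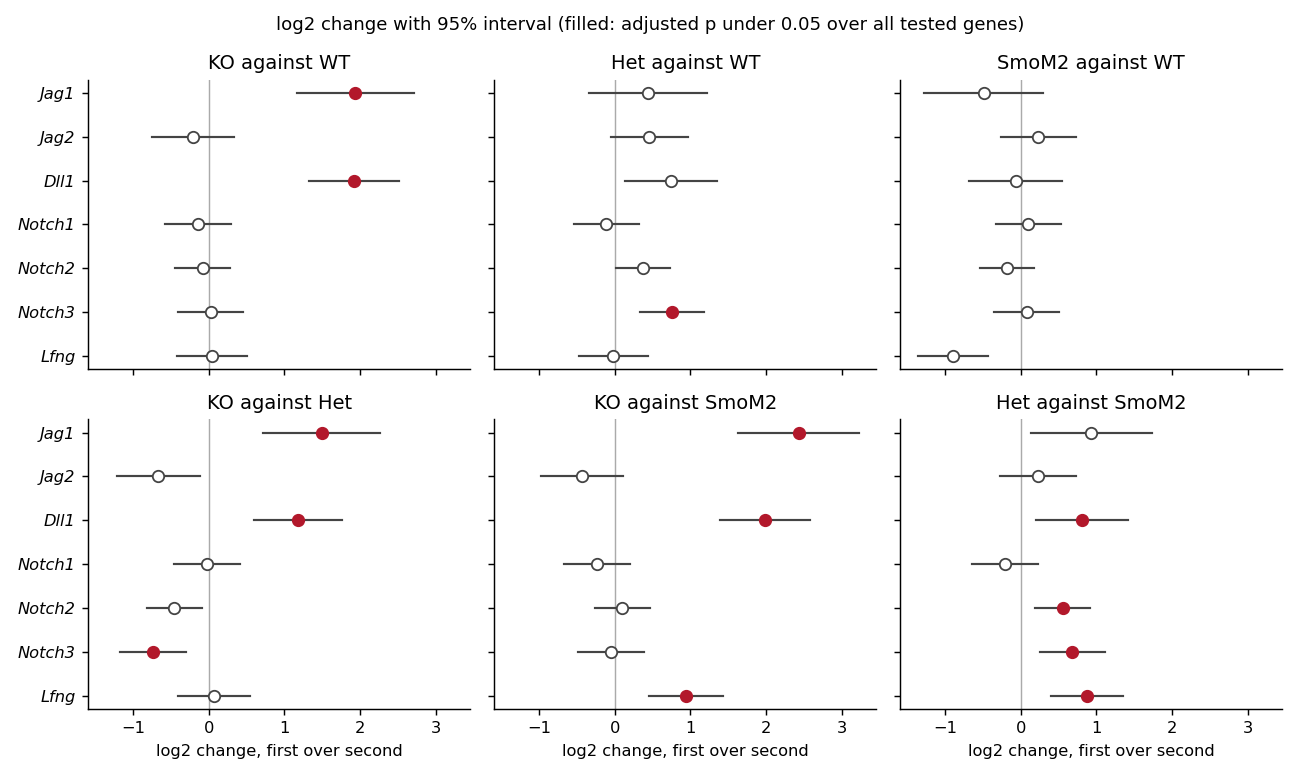
log2 change of the 7 tested members in the 6 comparisons of groups, first over second, with 95% intervals from edgeR; filled points have an adjusted p under 0.05. Jag1 (1.94) and Dll1 (1.92) stand apart from the other 5 members, between -0.20 and 0.05, in the KO- against WT-labelled panel, and Notch3 (0.76) is the filled point of the Het- against WT-labelled panel.

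Genes of early nephron structures moved with Jag1 and Dll1 in the KO-labelled libraries. A list of 21 markers of pretubular aggregate and renal vesicle, without the Notch members, reached a sum of 1696 and 1991 CPM under the KO label, against 752 to 1160 CPM in the other 6 libraries. Of its 18 tested genes, 13 were higher and 0 lower in the KO- than in the WT-labelled libraries (11.6% and 11.4% of all tested genes), with a median change of 2.05. Lhx1, a transcription factor of the renal vesicle, was at 62.2 and 122 CPM in the KO-labelled libraries and at 4.50 to 10.9 elsewhere. In KO against SmoM2 13 of the 18 were higher and 2 lower (16.5% and 16% of all tested genes). In KO against Het 9 were higher and 1 lower (4.33% and 5.1%), with a median change of 1.72, or 1.25 without Het-labelled replicate 1. In the Het- against WT-labelled comparison 2 of the 18 were higher and 2 lower (13.1% and 12.2% of all tested genes). The part of these cells in the Jag1 and Dll1 values was not tested. In KO against WT without WT-labelled replicate 1, the median change was 1.69 over the 20 markers then tested. With at least 10 counts required in every library, 6 of the 11 then tested were higher and 0 lower in KO against WT. Of all 11604 genes then tested, 1376 were higher and 1632 lower.

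**Figure D4:**
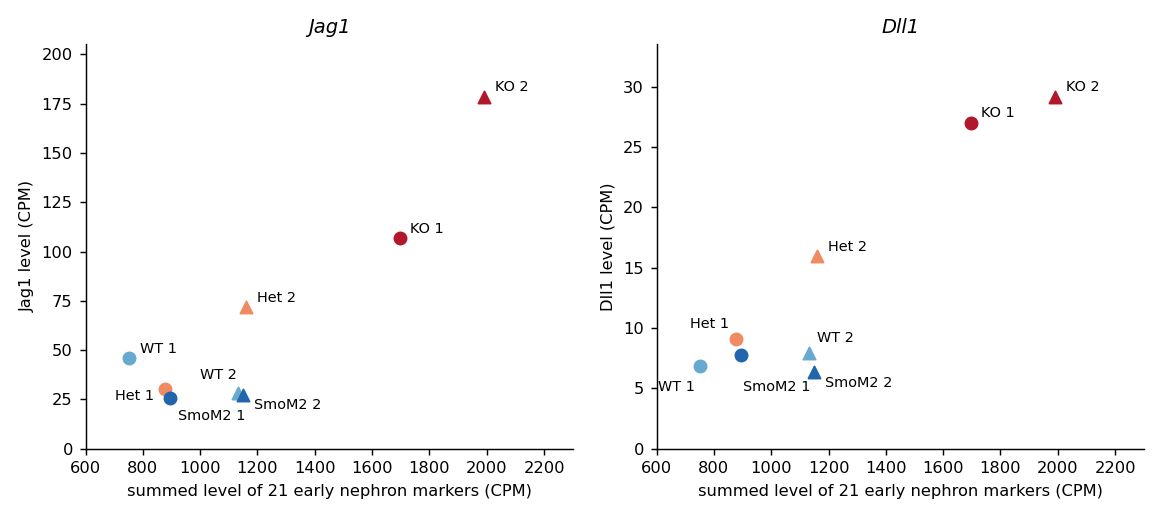
Level of Jag1 (left) and Dll1 (right) in CPM against the summed CPM of 21 early nephron markers, which exclude the Notch members, in each library. The KO-labelled libraries lie at the upper right of both panels, at sums of 1696 and 1991, and the other 6 libraries lie between 752 and 1160.

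Within the pairs, Jag1 was higher in the replicate with the larger early nephron sum under the KO, Het and SmoM2 labels and lower in it under the WT label (28.2 against 46.0 CPM, at sums of 1133 and 752). Dll1 was higher in that replicate under the KO, Het and WT labels and lower in it under the SmoM2 label. Replicates 2 of the Het-, WT- and SmoM2-labelled groups had sums of 1160, 1133 and 1149 CPM, with Jag1 at 71.8, 28.2 and 27.4 CPM and Dll1 at 16.0, 7.95 and 6.36 CPM. Replicates 1 of the Het- and SmoM2-labelled groups had sums of 878 and 896 CPM, with Jag1 at 30.2 and 25.6 CPM and Dll1 at 9.09 and 7.77 CPM. A sum of CPM weighs the most abundant markers most, so near-equal sums need not mean equal levels of each marker. These are single libraries and carry no test.

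The other marker lists gave these sums. The 15 progenitor markers summed to 7338 and 6467 CPM under the KO label, 8206 and 7858 under the Het label, and 5318 to 5610 in the WT- and SmoM2-labelled libraries. The 9 podocyte markers summed to 210 and 189 CPM under the KO label, 179 and 181 under the Het label and 85.9 to 106 in the other libraries. Most of that sum was Tcf21, at 114 to 134 CPM in the KO- and Het-labelled libraries, while Nphs1, a defining podocyte gene, was at 0.28 CPM or less. Of the 7 tested podocyte markers 2 were higher and 2 lower in KO against WT (11.6% and 11.4% of all tested genes). The 16 endothelial markers summed to 83.5 and 55.1 CPM under the KO label and to 41.5 to 56.3 in the other 6 libraries. Of the 5 tested endothelial markers 3 were higher and 1 lower in KO against WT (11.6% and 11.4% of all tested genes), with a median change of 0.78. Cldn5 was at 22.1 and 17.0 CPM under the KO label against 0.535 to 2.07 elsewhere. The defining endothelial genes Pecam1, Cdh5, Kdr, Flt1 and Sox17 were each at 1.53 CPM or less. The 8 erythroid markers summed to 46.1 and 14.6 CPM under the KO label, 28.1 and 20.9 under the Het label and 3.24 to 8.38 in the others. Of the 4 tested erythroid markers, 3 were higher in KO against WT (11.6% of all tested genes) and 2 in Het against WT (13.1%). In both comparisons 0 were lower (11.4% and 12.2% of all tested genes). The 11 stromal markers summed to 970 and 478 CPM under the KO label and to 613 to 1011 in the other libraries. The 12 ureteric epithelium markers summed to 61.2 and 74.0 CPM under the SmoM2 label and to 26.1 to 41.9 elsewhere. The 10 immune markers summed to 14.4 to 48.9 CPM over all libraries. The genes singled out from these lists were chosen after their values were seen, and the part of these cells in the members' values was not tested.

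A list of 69 other Notch pathway genes had 64 that passed the filter. Between KO- and WT-labelled libraries 5 were higher and 18 lower, where 11.6% and 11.4% of all tested genes were, and the median change was -0.16 against 0.034 over all tested genes. The lower ones were mainly genes of receptor cleavage and of the nuclear complex. Of the 10 cleavage genes 5 were lower: Furin (-0.71), which processes the receptor on its way to the surface, Adam10 (-0.52), which makes the first cut after ligand binding, and the gamma-secretase genes Psen2 (-0.52), Ncstn (-0.72) and Aph1b (-1.08). Of the 13 nuclear genes 7 were lower, among them Rbpj (-0.48), the DNA-binding partner of Notch, its coactivators Maml1 (-0.62), Maml3 (-0.98) and Ep300 (-0.57), and Spen (-0.38) and Kdm5a (-1.19), which belong to its repressor side.

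Among the cleavage genes, Furin and Ncstn were called in 16 of 16 alternatives, Aph1b in 15, Adam10 in 13 and Psen2 in 8. The lower values of cleavage and nuclear genes depended in part on the length and GC correction. With those trends removed, 3 of the 13 nuclear genes were called lower, among them Kdm5a at -0.64 and Maml3 at -0.76. Spen turned to 0.062 and Rbpj was at -0.18 (edgeR adjusted p = 0.444). Of the 10 cleavage genes 4 were still called lower, while Adam10, at -0.31, did not pass (edgeR adjusted p = 0.186). Of all 13459 tested genes 1057 were called lower with those trends removed, against 1538 in the main fit. Without KO-labelled replicate 1 the median change was -0.40 over the nuclear genes and -0.48 over the cleavage genes. Without WT-labelled replicate 2 the medians were -0.50 and -0.52, against -0.57 and -0.52 in the main fit. With either library left out, fewer genes of both lists were called lower, and so were fewer genes of any kind. These values under other settings were computed after the data had been seen.

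Genes that act on the ligand or the receptor showed single changes. Mib1, the ubiquitin ligase that lets ligands be pulled into the sending cell, was lower in the KO- than in the WT-labelled libraries by 0.96 (coded -0.96, edgeR adjusted p = 0.00760). Mfng, another fringe enzyme, was higher by 2.50 (edgeR adjusted p = 0.0439) from 0.366 ± 0.253 to 2.09 ± 0.801 CPM, a call made in 7 of the 14 alternatives that tested it. Rfng, the remaining fringe, was higher in the Het- than in the WT-labelled libraries by 0.95 (edgeR adjusted p = 0.00475), from 37.7 ± 2.75 to 72.8 ± 2.85 CPM, and its KO- against WT-labelled change was 0.27 (edgeR adjusted p = 0.333). Gxylt2 (-0.55), Numbl (-0.60), Nedd4 (-0.47) and Dtx1 (-0.42) were lower and Dtx2 (0.62) and Nrarp (1.43) higher in the KO- than in the WT-labelled libraries. Of 16 alternatives, Gxylt2 was called in 9, Dtx1 in 10, Nedd4 in 12, Numbl in 13, Dtx2 in 14 and Nrarp in 16. With GC and length trends removed Nedd4 was at -0.23 and did not pass. Nrarp, a feedback inhibitor that Notch itself induces, was at 19.5 ± 4.73 CPM under the KO label, 11.8 ± 2.25 under the Het label, 7.25 ± 0.228 under the WT label and 4.29 ± 0.141 under the SmoM2 label.

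For the Het- against WT-labelled libraries 14 of the 64 were higher and 7 lower, where 13.1% and 12.2% of all tested genes were. Of the 9 genes of ligand endocytosis 4 were higher, namely Mib2 (0.78), Epn1 (0.57), Dnm1 (0.98) and Dnm2 (0.45), and 0 were lower. With GC and length trends removed, Epn1 (0.14) and Dnm2 (0.25) did not pass. Of the genes listed next, Snw1 (-0.26), Aph1b (-0.63) and Dtx3 (0.19) did not pass with those trends removed either. Rbpj was lower by 0.96 (coded -0.96, edgeR adjusted p = 0.00146), as were Maml3 (-0.92), Kdm5a (-0.91), Snw1 (-0.48), Ncstn (-0.44) and Aph1b (-0.88), while Spen (0.54), Kat2a (0.58), Adam17 (0.52), Numb (0.61), Dtx2 (0.66) and Dtx3 (0.50) were higher. The median change over the list was 0.057, against -0.017 over all tested genes. It was 0.042 without Het-labelled replicate 2 and 6.9e-05 without Het-labelled replicate 1. With either library left out, fewer genes of the list were called, and so were fewer genes of any kind. In the SmoM2- against WT-labelled comparison 0 of the 64 were called by edgeR's test, where 0.156% of all tested genes were higher and 0.0669% lower.

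The called outputs of the pathway did not share a direction. Over the 6 tested outputs the median change was 0.92 in KO against WT, against 0.034 over all tested genes. In Het against WT it was 0.91, against -0.017 over all. Hes1 did not pass in KO against WT (0.75, edgeR adjusted p = 0.0571). Hey1 (1.69) and Hey2 (1.72) were higher and Heyl (-2.16) lower in the KO- than in the WT-labelled libraries, and Hey1 (0.91), Hes1 (0.92) and Hes7 (2.36) were higher and Heyl (-2.51) lower in the Het- than in the WT-labelled ones. Of these calls, Hey2 was made in 9 of the 15 alternatives that tested it and Hes7, at 0.241 to 1.35 CPM as group means, in 6 of 14, while Hes1 was called in 12 of 16. Hes5 was at 0.330 CPM or less as a mean of any group and was not tested.

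**Figure D5:**
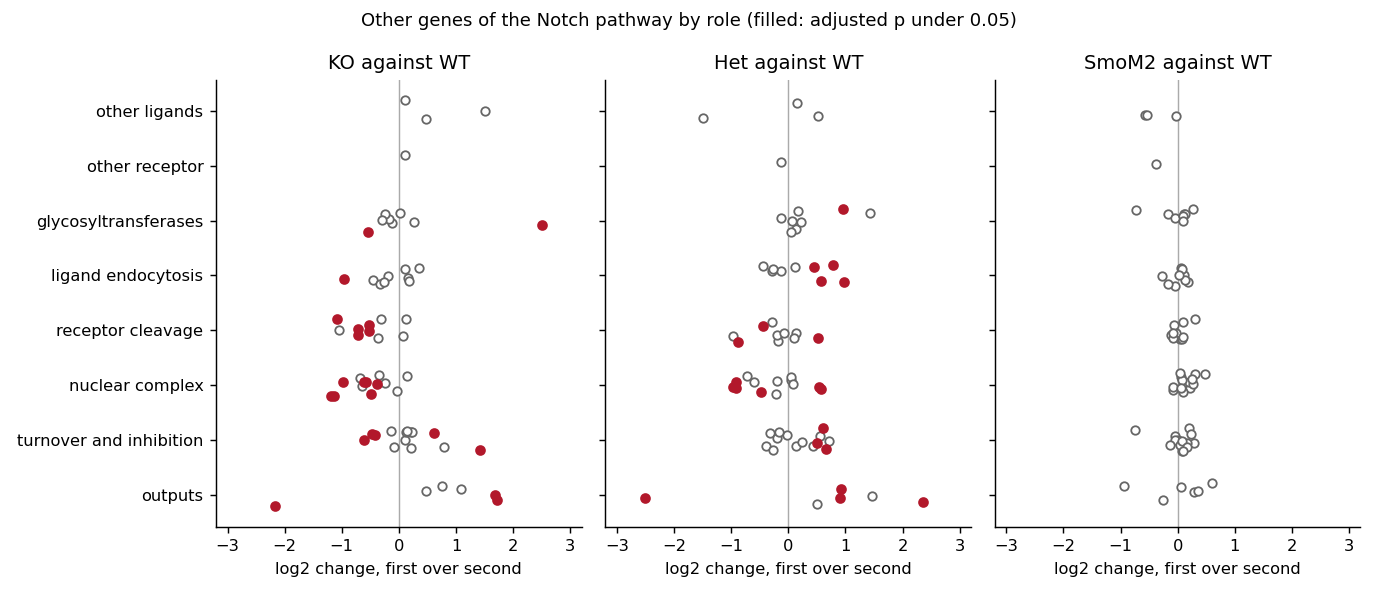
log2 change of the tested genes among 69 other Notch pathway genes, grouped by role, in the 3 comparisons with the WT-labelled libraries; filled points have an edgeR adjusted p under 0.05 and vertical scatter within a row only separates points. In the KO- against WT-labelled panel 5 of 10 cleavage genes and 7 of 13 nuclear genes are filled and to the left of 0, and the SmoM2- against WT-labelled panel has 0 filled points.

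For each tested member, the genes most like it over the 8 libraries were listed by Pearson's r of log2 CPM among 12458 genes with a mean log2 CPM of at least 1. All points share the same 8 libraries, and the values are a description. Among the 3 closest to Jag1 was Peg10 (r = 0.970), and among those closest to Dll1 were Pcp4 (0.989) and Myo5b (0.986). Dll1 had 239 genes with r above 0.9 and Jag1 had 96, while Notch1 had 5, the closest being 4933416M07Rik (0.950), Pisd-ps2 (0.930) and Ube2v2 (0.928). For Jag2 the closest were Mapk8ip3 (0.982), Mical3 (0.960) and Abca7 (0.959). For Notch2 they were Cdk5rap2 (0.986), Ttc13 (0.974) and Igfbp5 (0.969), and for Notch3 Pcdhb10 (0.979), Josd1 (0.977) and Mmp14 (0.968). For Lfng they were Pih1d2 (0.953), C1qtnf7 (0.952) and Cdhr1 (0.936), with 11 genes above 0.9.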

How the data were processed

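RNA was sequenced from 8 libraries of sorted nephron progenitors, with polyadenylated RNA selected, per the labels' protocols. The authors' deposited table gives, per the file headers, raw counts per gene, a gene length and RPKM that the authors had computed. STAR, featureCounts, Subread and mm10 are named in the submitters' processing notes; versions, annotation and strand setting are not given in the sources used here, so reads of overlapping antisense genes cannot be told apart. The listed counts were 81.1% to 83.3% of the totals that the deposited counts, lengths and RPKM values imply.

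Counts were fitted with edgeR 4.0.16 (limma 3.58.1, R 4.3.3): 1 mean per group over all 8 libraries, filterByExpr, TMM scaling, the quasi-likelihood test and Benjamini-Hochberg adjustment over 13459 tested genes at 0.05. Intervals are 95% from the same fit, and fold changes are log2. An exact permutation of 2 against 2 libraries cannot go below p = 0.333, so no such test was run. CPM compares libraries within a gene and deposited RPKM compares genes. The 2 libraries of each group differed beyond sampling noise. Same-numbered libraries of different groups were not treated as pairs in the main fit. Of 6 correlations of their deviations 1 was over 0.1, that of the WT- with the SmoM2-labelled libraries (0.391). These 2 groups also had the same order of sexes, so their replicates may share a source of spread. With the replicate block 54 genes were called in SmoM2 against WT, against 30 in the main fit. Alternatives were DESeq2 1.42.0, 2 other scalings, 2 other filters, fits of the compared groups alone, a replicate block, GC and length offsets (mgcv 1.9.3; GC known for 99.2% of tested genes and all members) and each library left out. The edgeR step was tested on simulated data. Plots were drawn with matplotlib 3.10.9 in Python 3.11.15.

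The members and gene lists were chosen with earlier results of these data known. Named genes are all members, Smo, pathway genes called in the KO- or Het- against WT-labelled comparison, 6 named outputs, marker genes, and the 3 genes closest to each member. Some genes that this rule names are not reported here. Sequences and coordinates are RefSeq's for GRCm38.p6. Protein sequences were not analysed here.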

Additional observations from a re-analysis of the deposited data

How the results depend on the processing

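Of 42 member-by-comparison results, 13 were called, and none of those 13 changed direction under any alternative; 17 results that were not called changed direction in at least 1. The number of members called was 2 in every alternative for the KO- against WT-labelled comparison. For the Het- against WT-labelled comparison (main count 1) it was 4 with no low-count filter, 2 with the replicate block, 0 with GC and length trends removed and 0 to 2 with 1 library left out. For the SmoM2- against WT-labelled comparison it was 1 with no filter, a fit whose p-values are not comparable with the others, and otherwise 0. For the KO- against Het-labelled comparison (main count 3) it was 0 to 3 with 1 library left out. For the Het- against SmoM2-labelled comparison (main count 4) it was 2 with GC and length trends removed and 0 to 5 with 1 library left out. The replicate block changed no other call among the members than Notch2, which it called for the Het- against WT-labelled (0.37) and KO- against Het-labelled (-0.46, adjusted p = 0.0354) comparisons.

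With GC and length trends removed, directions turned for Notch1 (0.23), Notch2 (0.32) and Lfng (-0.15) in the KO- against WT-labelled comparison, Notch1 (0.43) in KO against Het, Notch1 (0.18) and Notch3 (0.21) in KO against SmoM2 and Jag2 (-0.21) in Het against SmoM2. Notch2 in KO against SmoM2, at 0.10 in the main fit, passed with those trends removed (0.55, edgeR adjusted p = 0.0253). With the RPKM-implied totals directions turned for Notch1 in KO against Het (0.053) and Notch3 in KO against SmoM2 (0.049). Notch3 in KO against WT turned to -0.0029 with the strict filter and -0.0019 with the compared groups alone. The causes were not tested. Over all genes, the number called ran over the alternatives from 1304 to 3829 in KO against WT, 1401 to 4093 in Het against WT, 8 to 356 in SmoM2 against WT, 36 to 2217 in KO against Het, 2423 to 4898 in KO against SmoM2 and 2409 to 5119 in Het against SmoM2. With the RPKM-implied totals the genes called higher and lower were 938 and 511 in KO against Het, against 583 and 686, and 2779 and 1645 in KO against SmoM2, against 2218 and 2154. The counts of 4422305 to 10305398 per library limited the tests most for Dll4, which had at most 9 counts in a library.

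With 1 library left out, the KO- against WT-labelled values ran from -0.43 to 0.0087 for Jag2, -0.35 to 0.073 for Notch1, -0.29 to 0.10 for Notch2, -0.30 to 0.29 for Notch3 and -0.13 to 0.20 for Lfng. The Het- against WT-labelled values ran from -0.32 to 0.92 for Jag1, -0.35 to 0.10 for Notch1 and -0.19 to 0.14 for Lfng. The SmoM2- against WT-labelled values ran from -0.21 to 0.078 for Dll1, -0.11 to 0.35 for Notch1 and -0.12 to 0.32 for Notch3. In KO against Het they ran from -0.24 to 0.18 for Notch1 and -0.074 to 0.19 for Lfng, and in KO against SmoM2 from -0.11 to 0.28 for Notch2 and -0.38 to 0.21 for Notch3.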
